A study of Mus musculus with 2 samples.

Results

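Prf1, Gzma, Gzmk, Gzmm, Nkg7, Fasl and Tnfsf10 are killing genes of T and NK cells. They were chosen by symbol, matched 7 of the 32285 genes counted in each library, and are described across cell classes gated on UMIs of Cd3, Cd8, Cd4, Ncr1 and Itga2. The data are single-cell RNA counts of CD45+ leukocytes from tumors of WT mice that carried the melanoma line B16-F10. The DOPAC group received DOPAC, a breakdown product of dopamine, and the Control group received vehicle. Each group is 1 library of cells from 4 mice, per the series' design, and no tag assigns cells to mice. The protocol text in the labels speaks of colon tissue, whereas the tissue label, the title and the design speak of tumors, which were followed.

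Killer lymphocytes kill a target cell in 2 ways. In the first, lytic granules are released onto the target: perforin, made from Prf1, opens its membrane, and granzymes, the serine proteases of the granule, enter and cleave proteins that start cell death. In the second, a ligand of the TNF superfamily on the killer's surface, such as Fas ligand (Fasl) or TRAIL (Tnfsf10), engages a death receptor on the target. Granzyme A (Gzma) and granzyme K (Gzmk) are tryptases, granzyme M (Gzmm) prefers to cut after methionine or leucine, and Nkg7 is a membrane protein of the granules that takes part in their release.

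The genes lie on 5 chromosomes in GRCm38 (GENCODE M21). Prf1 is at chr10:61297833-61304680 on the plus strand, and Gzmm is on the same chromosome at chr10:79689020-79695261, plus strand. Gzma at chr13:113093825-113100981 and Gzmk at chr13:113171608-113225908, both on the minus strand, are neighbours: 70626 bases and no protein-coding gene lie between them. Nkg7 is at chr7:43437073-43438249 on the plus strand, Fasl at chr1:161780689-161788495 on the minus strand and Tnfsf10 at chr3:27317028-27342427 on the plus strand. Of the 7, Gzmk alone overlaps another gene, Esm1 on the opposite strand; reads of antisense partners can be told apart only where counting uses strand, which is not given in the sources used here.

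The promoter windows of all 7 genes, 250 bases before to 50 bases after the start (RefSeq, GRCm38.p6), were searched on both strands for the core letters of 2 families of transcription factors of killer lymphocytes. GGTGTGA is the core bound by T-box factors such as T-bet (Tbx21) and Eomes, and it was present in windows of Gzmk, Gzmm and Nkg7, 3 of 7 genes, against 3.98% of all 32851 windows. The short stretches around it are shown for these 3 genes, with the matched letters in capitals, in the orientation of the gene.
Nkg7, chr7:43437115-43437141, plus strand: gggtagggaaGGTGTGAgaagaatcag
Gzmk, chr13:113181024-113181050, minus strand: tgaaaccttgGGTGTGAaaaatctaac
Gzmm, chr10:79693627-79693653, plus strand: gcagctcttgGGTGTGAccgcatatgc

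Positions count from the RefSeq start, which can lie inside the GENCODE gene given above. The match began at position -13 in Nkg7, whose RefSeq start is 65 bases downstream of the GENCODE one. It began at -75 in Gzmk, whose RefSeq start is 44943 bases downstream, and at -189 in Gzmm, from a RefSeq start 4806 bases downstream that is one of 2 in the table. ACCACA, the core bound by RUNX factors such as Runx3, was present in windows of Prf1, Gzma, Gzmm and Nkg7, 4 of 7 genes, against 16.8% of all windows. The 2 letter strings do not overlap, and the stretches of Prf1, a pore gene, and Gzma, a protease gene, are shown.
Prf1, chr10:61297696-61297721, plus strand: ggaacctgtgACCACActctgggggc
Gzma, chr13:113101016-113101041, minus strand: gaagaacaaaACCACAtcctttgcac

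The match began at position -130 in Prf1 and -50 in Gzma, whose RefSeq starts lie 3 and 0 bases downstream of the GENCODE ones. A match describes letters in the window and is not a bound site, and the windows of Fasl and Tnfsf10 held neither string.

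After filtering, 9225 cells of the DOPAC library with a median of 3589 UMIs and 8074 cells of the Control library with a median of 9292.5 UMIs were used, and 32 barcodes occurred in both libraries. CD8 T cells (a Cd3 and a Cd8 UMI, no Cd4 or Ncr1) numbered 3711 in the DOPAC library and 814 in the Control library, and NK cells (an Ncr1 UMI, no Cd3) 236 and 473. CD4 T cells numbered 135 in the DOPAC library and 288 in the Control library, T cells without Cd8 and Cd4 UMIs 1834 and 1377, and cells with both Cd3 and Ncr1 119 and 146. Gates on UMIs miss cells in which a gene was not captured, more so in the shallower DOPAC library. T cell markers summed to 3388 and 2651 CPM (counts per 1000000 UMIs) in CD8 T cells of the DOPAC and the Control library. In NK cells they summed to 242 and 167 CPM, and NK markers to 3454 and 4882 CPM. The T cell list includes the Cd3 genes and the NK list Ncr1 and Itga2. The gates use these genes, so the sums are partly fixed by the gates and are no check of them. RNA of other cells was present and differed between libraries. Monocyte and macrophage markers summed to 409 CPM in DOPAC and 1333 CPM in Control CD8 T cells, and to 283 CPM in DOPAC and 1600 CPM in Control NK cells. Melanoma markers summed to 9.57 CPM in DOPAC and 399 CPM in Control CD8 T cells. The part of this RNA in the differences below was not tested beyond leaving out cells with such markers. That step left 2777 of 3711 DOPAC but 176 of 814 Control CD8 T cells. Of NK cells it left 209 of 236 in the DOPAC and 140 of 473 in the Control library. With 1 library per group, no difference between treatments has a replicate check and no test was made. Levels are CPM of the UMIs summed over the cells of a class, and all intervals are 95% intervals that cover counting error only.

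In CD8 T cells, 4 of the 7 genes were at least 1.5-fold higher in the DOPAC library (Prf1, Tnfsf10, Nkg7 and Fasl), 1 was at least 1.5-fold lower (Gzmm), and the neighbours Gzma and Gzmk lay between. Of all 13346 genes with at least 20 UMIs in these cells, 13.7% were higher and 27.3% lower by the same rule. The median log2 ratio of the 7 genes was 0.61, beside -0.15 over all genes. In NK cells, 1 of the 7 was higher (Tnfsf10, on 9 and 25 UMIs) and 1 lower (Fasl), where 13.6% of 9635 genes were higher and 21.0% lower. There the median log2 ratio was -0.15, beside -0.06 over all genes.

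Prf1, the pore former, differed most between libraries in CD8 T cells among the genes that were higher. DOPAC CD8 T cells had 177 CPM (171 to 182), against 41.2 CPM (37.1 to 45.7) for Control CD8 T cells, a fold of 4.28 (3.84 to 4.78). In NK cells the level was 336 CPM (299 to 376) in the DOPAC library and 329 CPM (311 to 348) in the Control library, and these intervals overlap. The ratio of NK to CD8 T cells was therefore 1.90 (1.69 to 2.14) in the DOPAC library and 7.98 (7.09 to 9.01) in the Control library. After each cell was thinned to 1000 UMIs, 14.3% (13.2 to 15.5) of DOPAC and 4.06% (2.81 to 5.65) of Control CD8 T cells had a Prf1 UMI, beside 46.3% and 23.3% without thinning. In Csf1r cells, macrophages and monocytes that should lack the gene, the thinned shares were 0.279% in the DOPAC and 0.226% in the Control library. The Csf1r gate leaves out cells with a Cd3, Ncr1 or Cd79a UMI, so its shares can understate the background of lymphocyte RNA. Of NK cells, 26.5% in the DOPAC and 30.0% in the Control library had a Prf1 UMI after thinning. CD8 T cells held 66.2% of all Prf1 UMIs of the DOPAC library and 11.8% of those of the Control library, whereas NK cells held 5.17% and 39.0%. These shares depend on class size. CD8 T cells were 40.2% of kept DOPAC and 10.1% of kept Control cells, and NK cells 2.56% and 5.86%. Cells with both Cd3 and Ncr1 had 330 CPM in the DOPAC and 158 CPM in the Control library.

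The order of classes was the same at its ends in both libraries. NK cells with Itga2, a marker of conventional NK cells, were highest at 428 CPM of Prf1 in the DOPAC and 377 CPM in the Control library, and CD4 T cells lowest at 11.5 CPM (6 UMIs) and 10.9 CPM (39 UMIs). Intervals of neighbouring classes overlapped for NK cells with Itga2, cells with Cd3 and Ncr1, and NK cells without Itga2 in the DOPAC library. In the Control library they overlapped for T cells without Cd8 and Cd4 and CD4 T cells only.

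Gzma was an NK gene in both libraries, and its CD8 T cell level hardly differed between them. NK cells had 3074 CPM (2960 to 3192) in the DOPAC and 3407 CPM (3347 to 3468) in the Control library, and CD8 T cells had 148 CPM (143 to 153) in the DOPAC and 140 CPM (132 to 148) in the Control library. The NK level was thus 20.8 times (19.7 to 21.9) the CD8 T level in the DOPAC library and 24.4 times (23.0 to 25.9) in the Control library. After thinning, 68.4% of DOPAC and 76.3% of Control NK cells had a Gzma UMI, against 9.33% and 8.24% of CD8 T cells. In Csf1r cells the shares were 3.63% in the DOPAC and 1.64% in the Control library, which is the background beside the CD8 T shares.

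The gene was concentrated in few CD8 T cells. The 10% of CD8 T cells with most Gzma UMIs held 78.9% of them in the DOPAC library and 85.1% in the Control library. For Prf1 the corresponding 10% held 51.0% in the DOPAC and 69.6% in the Control library, and for Nkg7 29.7% and 39.4%.

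In NK cells the Gzma level differed by Itga2 in the Control library. It was 4331 CPM in NK cells with Itga2 and 2477 CPM in those without, a ratio of 1.75 (1.68 to 1.81). In the DOPAC library the levels were 3207 CPM and 3029 CPM, a ratio of 1.06 (0.971 to 1.15) on 66 and 170 cells. NK cells with Itga2 therefore had a log2 ratio of -0.43 between the DOPAC and the Control library, and NK cells without it 0.29. Whether these ratios differ could not be tested, and monocyte and macrophage markers in NK cells without Itga2 summed to 272 CPM in the DOPAC and 2342 CPM in the Control library, whose part was not tested.

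Gzmk, next to Gzma on the chromosome, had the opposite distribution. CD8 T cells had 53.1 CPM (50.1 to 56.3) in the DOPAC and 40.0 CPM (35.9 to 44.4) in the Control library, against 10.1 CPM (9 UMIs) and 8.87 CPM (32 UMIs) in NK cells. The NK level was 0.191 times (0.0871 to 0.364) the CD8 T level in the DOPAC library and 0.222 times (0.149 to 0.319) in the Control library. CD8 T cells held 86.5% of the Gzmk UMIs of the DOPAC library and 61.4% of those of the Control library, and were 40.2% and 10.1% of the kept cells. The thinned shares of CD8 T cells with a Gzmk UMI, 4.95% (4.27 to 5.70) in the DOPAC and 5.54% (4.07 to 7.34) in the Control library, overlap. In Csf1r cells they were 0.279% in the DOPAC library and 0 of 1771 cells in the Control library, which allows up to 0.169%.

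Gzmm was sparse. It had 119 UMIs in all kept DOPAC cells and 283 in all kept Control cells. In CD8 T cells its level was 3.14 CPM (2.44 to 3.99) on 68 UMIs in the DOPAC library and 14.6 CPM (12.2 to 17.4) on 127 UMIs in the Control library, a fold of 4.65 (3.44 to 6.34) of Control over DOPAC. Within CD8 T cells, 120 of the 127 Control UMIs lay in cells with naive-cell genes. Those cells were 724 of the 814 Control CD8 T cells and held 7625965 of their 8681498 UMIs of all genes, so most Gzmm UMIs would lie there at an even level. Without thinning 1.51% of DOPAC and 8.23% of Control CD8 T cells had a Gzmm UMI. After thinning the shares were 0.598% (0.375 to 0.905) in the DOPAC and 0.984% (0.426 to 1.93) in the Control library, and these overlap. When cells were thinned to 1000 UMIs before gating, the log2 ratio of -2.21 became -0.51, under the 1.5-fold limit. That value rests on 16 DOPAC and 3 Control UMIs, so it is weakly determined. Without naive-gene cells the log2 ratio was -1.33, on 52 DOPAC and 7 Control UMIs. NK cells had 4.51 CPM on 4 UMIs in the DOPAC and 7.48 CPM on 27 UMIs in the Control library, with overlapping intervals.

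Without thinning, Nkg7 was detected in 92.2% of DOPAC and 84.2% of Control CD8 T cells, and in 81.8% and 94.7% of NK cells. Its order of classes differed between libraries. DOPAC CD8 T cells had 1261 CPM (1246 to 1276) and Control CD8 T cells 667 CPM (649.8 to 684), a fold of 1.89 (1.84 to 1.95). In NK cells it was 894 CPM (833 to 958) in the DOPAC and 1267 CPM (1231 to 1304) in the Control library, a fold of 0.706 (0.654 to 0.761), short of a 1.5-fold difference. CD8 T cells were the highest class of 6 in the DOPAC library and the fourth highest in the Control library. After thinning, 65.2% of DOPAC and 43.2% of Control CD8 T cells had an Nkg7 UMI, and 51.3% of DOPAC and 65.8% of Control NK cells. When cells were thinned before gating, the log2 ratio of 0.92 in CD8 T cells became 0.47, under 1.5-fold. The background in Csf1r cells was 6.70% in the DOPAC and 1.47% in the Control library.

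**Figure D1:**
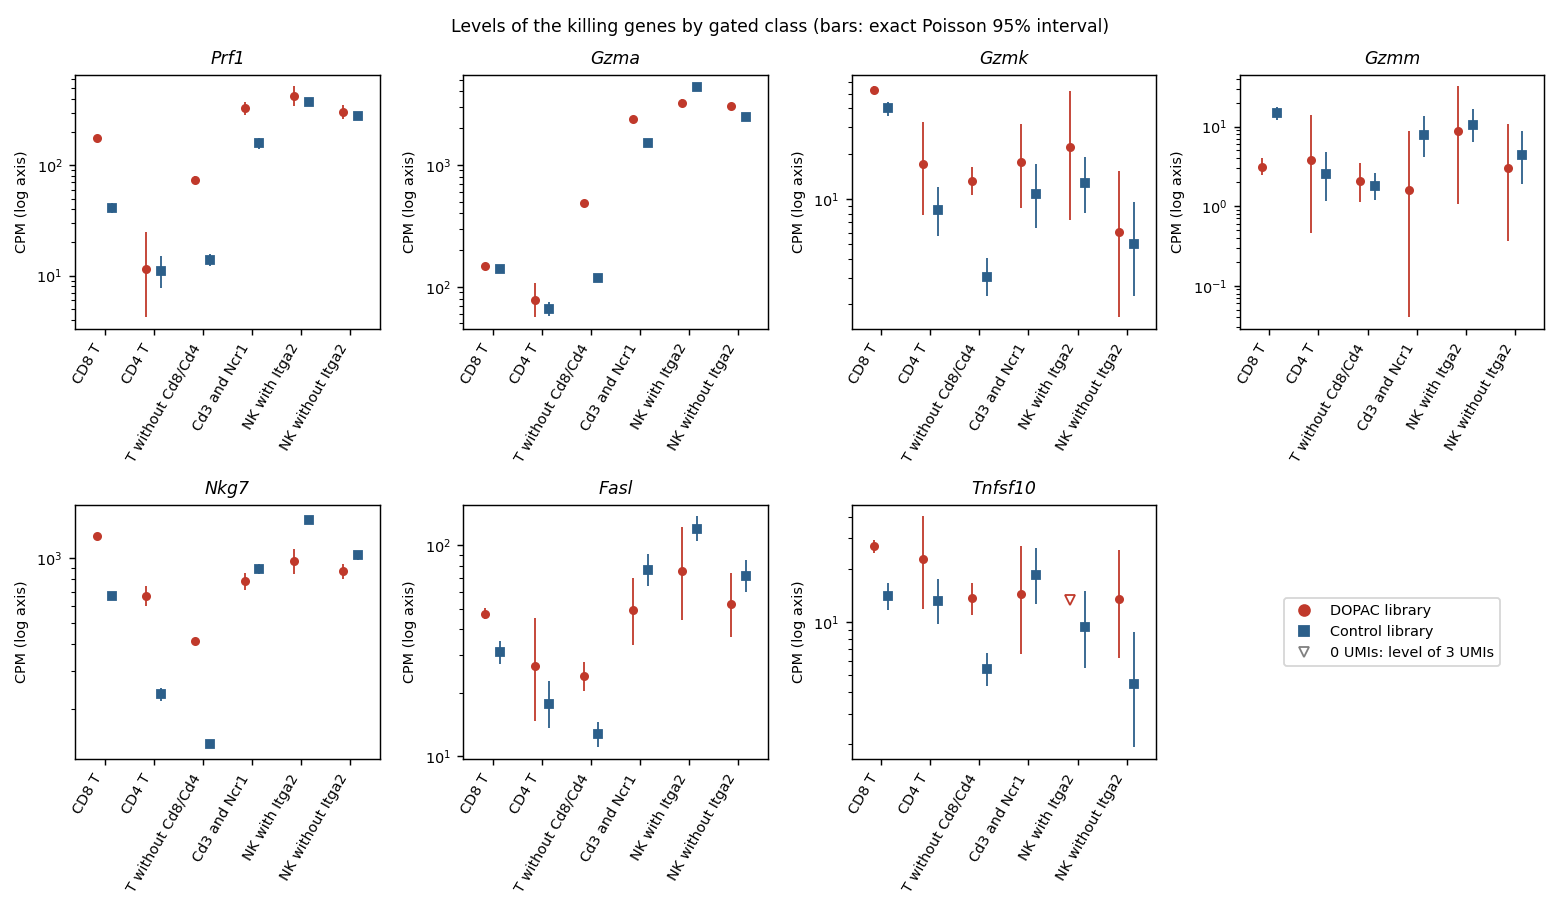
Level of each gene (CPM, log axis) in 6 gated classes, with the DOPAC library as red circles and the Control library as blue squares, and bars for exact Poisson 95% intervals (counting error only). The DOPAC circle lies above the Control square for Prf1 in CD8 T cells (177 and 41.2), Gzma lies highest in NK cells of both libraries, and Gzmk lies highest in CD8 T cells. The open triangle marks a class with 0 UMIs at the level of 3 UMIs.

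Of the death ligands, Fasl was higher in CD8 T cells and lower in NK cells of the DOPAC library. CD8 T cells had 47.4 CPM (44.5 to 50.4) in the DOPAC and 31.0 CPM (27.4 to 34.9) in the Control library, a fold of 1.53 (1.34 to 1.76). NK cells had 58.6 CPM (43.8 to 76.9) on 52 UMIs in the DOPAC and 95.9 CPM (86.0 to 107) on 346 UMIs in the Control library, a fold of 0.611 (0.448 to 0.820). After thinning, 5.30% (4.60 to 6.08) of DOPAC and 3.44% (2.30 to 4.94) of Control CD8 T cells had a Fasl UMI, and 5.13% (2.68 to 8.79) of DOPAC and 12.7% (9.82 to 16.0) of Control NK cells. The CD8 T intervals overlap and the NK intervals do not. In NK cells with Itga2 the Fasl log2 ratio was -0.59 (-1.47 to 0.05), on 17 DOPAC UMIs. In those without Itga2 it was -0.41 (-1.02 to 0.11), on 35 DOPAC UMIs, and both intervals include no change. NK cells with Itga2 were 66 of 236 NK cells in the DOPAC and 249 of 473 in the Control library, and the part of this was not tested. The log2 ratio of 0.61 in CD8 T cells fell short of 1.5-fold with at least 2 Cd3 UMIs (0.44), without cells of mixed lineage (0.42), after thinning before gating (0.34) and without naive-gene cells (0.29). In NK cells the ratio of -0.69 fell short of 1.5-fold with doublets kept (-0.58), without mitochondrial, ribosomal and haemoglobin genes in the total (-0.58), and in a wider gate of 616 DOPAC and 855 Control cells, chosen after the data were seen (-0.52). In Csf1r cells the shares were 0 of 358 cells in the DOPAC library, which allows up to 0.838%, and 0.113% in the Control library.

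Tnfsf10, which encodes TRAIL, was lower in NK than in CD8 T cells of both libraries, at 0.375 times (0.171 to 0.717) the CD8 T level in the DOPAC and 0.493 times (0.307 to 0.763) in the Control library. CD8 T cells had 27.0 CPM (24.9 to 29.3) in the DOPAC and 14.1 CPM (11.7 to 16.8) in the Control library, a fold of 1.92 (1.58 to 2.36). NK cells had 10.1 CPM on 9 UMIs in the DOPAC and 6.93 CPM on 25 UMIs in the Control library, with a fold interval of 0.602 to 3.24, so that the direction of its log2 ratio of 0.65 is not determined at this depth. NK cells with Itga2 had 0 UMIs in the DOPAC library, which allows up to 13.4 CPM, and 17 UMIs, or 9.39 CPM, in the Control library. The thinned shares of CD8 T cells were 2.53% (2.05 to 3.09) in the DOPAC and 1.23% (0.591 to 2.25) in the Control library, beside 0.279% and 0.282% of Csf1r cells.

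**Figure D2:**
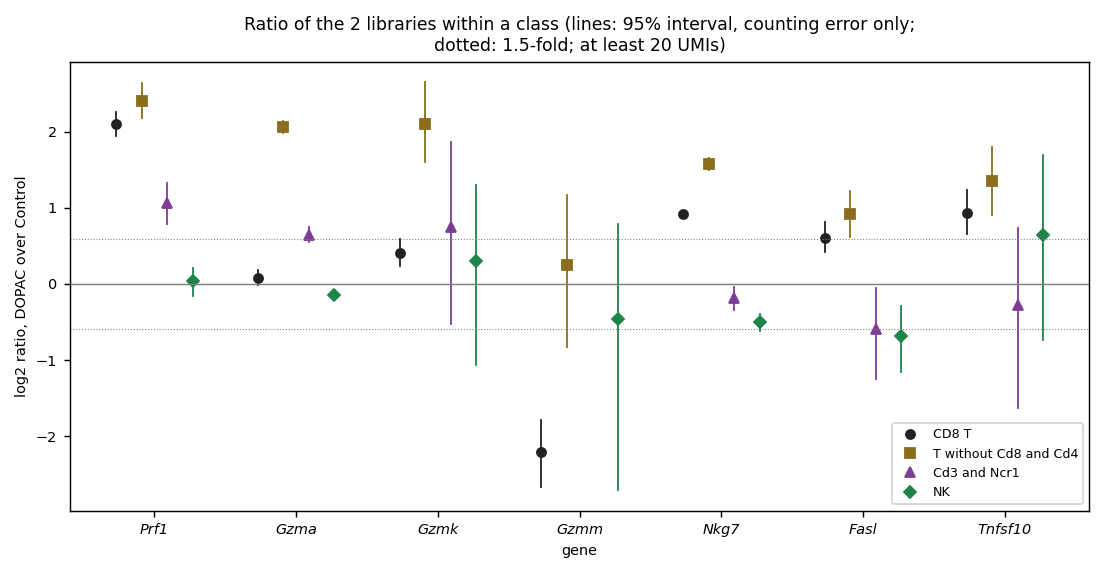
Log2 ratio of the DOPAC library over the Control library for each gene in 4 classes with at least 20 UMIs, with lines for 95% intervals (counting error only) and dotted lines at 1.5-fold. In CD8 T cells Prf1 lies at 2.09 and Gzmm at -2.21, and in NK cells Fasl lies at -0.69. T cells without Cd8 and Cd4 lie above 0 for all 7 genes.

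In T cells without Cd8 and Cd4 UMIs, 6 of the 7 genes were at least 1.5-fold higher in the DOPAC library, all but Gzmm. Of 13260 genes there, 13.2% were higher and 18.5% lower by the same rule. Gzma was at 489 CPM in the DOPAC and 117 CPM in the Control library, Prf1 at 73.6 and 13.9 CPM, and Nkg7 at 412 and 139 CPM. This gate held RNA of other cells in both libraries. NK markers summed to 2167 CPM in the DOPAC and 2598 CPM in the Control library, and monocyte and macrophage markers to 2112 and 5228 CPM. The NK list includes Tyrobp and Fcer1g, which macrophages also express, so its sum does not separate NK from macrophage RNA. Of its Gzma UMIs, 2609 of 3292 in the DOPAC and 1620 of 1880 in the Control library lay in cells with an NK receptor UMI (Klrb1c or Klre1). Among cells with at least 2 Cd3 UMIs and no other lineage, 692 in the DOPAC and 207 in the Control library, a gate chosen after the data were seen, Prf1 was at 92.5 and 29.0 CPM and Gzma at 523 and 119 CPM. There Fasl was at 41.5 CPM in the DOPAC and 50.0 CPM in the Control library, a fold of 0.830 (0.586 to 1.18). That interval includes 1, so the direction of Fasl is not determined there, whereas in the whole gate it was at least 1.5-fold higher.

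Of the killing genes described here, CD4 T cells had low levels of Prf1, Gzma, Gzmk and Gzmm. In the whole gate 4 of the 6 genes with at least 20 UMIs were at least 1.5-fold higher in the DOPAC library, where 17.9% of 9768 genes were higher and 20.7% lower. Of these 4, the intervals of Gzmk (9 DOPAC and 30 Control UMIs), Fasl (14 and 63) and Tnfsf10 (12 and 47) include no change, and that of Nkg7 does not. Nkg7 was at 667 CPM in the DOPAC and 235 CPM in the Control library, and at 818 CPM and 266 CPM among cells with at least 2 Cd3 UMIs and no other lineage (98 DOPAC and 57 Control cells). Gzma was at 53.3 CPM (20 UMIs) in the DOPAC and 9.26 CPM (3 UMIs) in the Control library in that gate, a fold of 5.76 with an interval of 1.71 to 30.2. Prf1, Gzmk, Fasl and Tnfsf10 had at most 10 UMIs in either library there, and their fold intervals include 1. Cells with both Cd3 and Ncr1 followed CD8 T cells for Prf1 (a fold of 2.09, 1.73 to 2.51) and NK cells for Fasl (0.647, 0.422 to 0.965).

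**Figure D3:**
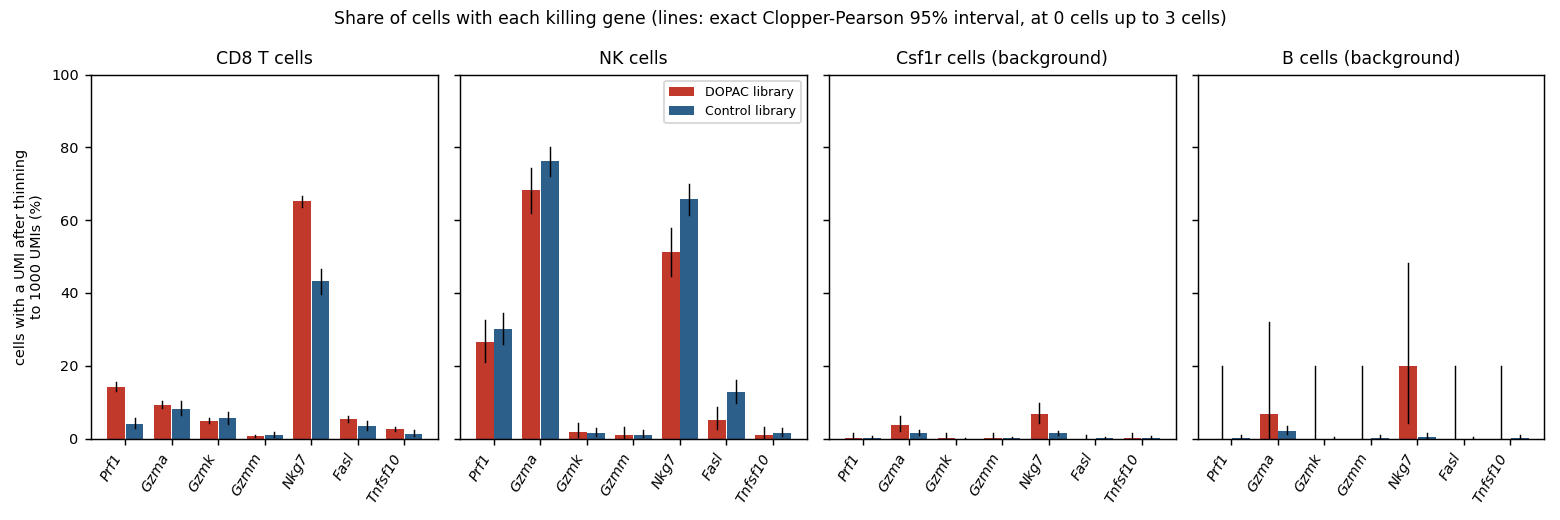
Share of cells with a UMI of each gene after every cell was thinned to 1000 UMIs, in CD8 T and NK cells and in 2 background classes, with the DOPAC library in red, the Control library in blue, and lines for exact Clopper-Pearson 95% intervals. For Nkg7 the DOPAC bar is higher in CD8 T cells (65.2% and 43.2%) and lower in NK cells (51.3% and 65.8%). The DOPAC B cells are 15 cells, and their intervals are accordingly wide.

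CD8 T cells differed in composition between libraries, so their levels were compared within 4 successive gates. Cells with naive-cell genes (at least 2 UMIs over a list with Lef1, Tcf7, Ccr7 and S1pr1 among its genes) numbered 543 in the DOPAC and 724 in the Control library, and the remaining cycling cells (Mki67 and Top2a) 916 and 20. Checkpoint cells (Pdcd1 or Havcr2) then numbered 1500 in the DOPAC and 43 in the Control library, and other cells 752 and 27. A gate on 2 UMIs takes in more cells of a deeper library, and median depth in the first gate was 6104 UMIs in the DOPAC and 7886.5 UMIs in the Control library.

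Prf1 was higher in the DOPAC library in all 4 gates. Its level was 147 CPM in the DOPAC and 41.7 CPM in the Control library in naive-gene cells, a fold of 3.53 (3.07 to 4.06). It was 210 CPM and 53.7 CPM (21 UMIs) in checkpoint cells, a fold of 3.91 (2.55 to 6.33), and 122 CPM and 47.8 CPM (8 UMIs) in other cells, a fold of 2.56 (1.28 to 5.97). In cycling cells it was 178 CPM in the DOPAC and 22.1 CPM (11 UMIs) in the Control library, a fold of 8.07 (4.50 to 16.2). There all 6 genes with at least 20 UMIs were at least 1.5-fold higher, where 19.3% of 10606 genes were higher and 36.8% lower, but the Control gate is 20 cells rich in RNA of other cells. Monocyte and macrophage markers summed to 323 CPM in DOPAC and 3707 CPM in Control cycling cells, and melanoma markers to 6.39 and 2698 CPM. T cell markers summed to 3285 CPM in DOPAC and 728 CPM in Control cycling cells.

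The neighbours Gzma and Gzmk were lower in the DOPAC library in checkpoint and in other cells, and higher in cycling cells. Gzma was at 91.4 CPM in the DOPAC and 197 CPM (77 UMIs) in the Control library in checkpoint cells, a fold of 0.464 (0.366 to 0.595), and at 335 CPM and 562 CPM (94 UMIs) in other cells, a fold of 0.596 (0.481 to 0.745). Gzmk was at 62.9 CPM and 113 CPM (44 UMIs) in checkpoint cells, a fold of 0.559 (0.410 to 0.780), and at 48.9 CPM and 108 CPM (18 UMIs) in other cells, a fold of 0.454 (0.276 to 0.791). In cycling cells Gzma was at 118 CPM in the DOPAC and 6.03 CPM (3 UMIs) in the Control library, a fold of 19.5 (6.66 to 94.8), and Gzmk at 51.1 CPM and 16.1 CPM (8 UMIs), a fold of 3.18 (1.60 to 7.42). In naive-gene cells Gzma was at 188 CPM in the DOPAC and 136 CPM in the Control library, a fold of 1.38 (1.26 to 1.52), and the fold of Gzmk was 1.15 (0.948 to 1.40). NK markers, among them Tyrobp and Fcer1g that macrophages also express, summed to 748 CPM in DOPAC and 1456 CPM in Control checkpoint cells. Monocyte and macrophage markers summed to 391 and 3099 CPM, and the part of either was not tested.

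Nkg7 and Fasl differed by less than 1.5-fold between libraries in checkpoint and in naive-gene cells, and their other gates were uneven. In checkpoint cells Nkg7 was at 1482 CPM in the DOPAC and 1303 CPM in the Control library, a fold of 1.14 (1.04 to 1.25), and Fasl at 54.3 CPM and 58.9 CPM (23 UMIs), a fold of 0.922 (0.606 to 1.47). Tnfsf10 was at 30.9 CPM in the DOPAC and 10.2 CPM (4 UMIs) in the Control library, a fold of 3.02 (1.16 to 11.2). In naive-gene cells the folds were 1.38 (1.32 to 1.44) for Nkg7, 1.26 (1.02 to 1.55) for Fasl and 1.87 (1.42 to 2.46) for Tnfsf10. In cycling cells they were 6.74 (5.49 to 8.37) for Nkg7, 5.47 (2.12 to 20.2) for Fasl on 4 Control UMIs, and 2.20 (0.992 to 6.05) for Tnfsf10 on 6. In other cells they were 1.13 (0.971 to 1.31) for Nkg7, 0.597 (0.350 to 1.10) for Fasl on 15 Control UMIs, and 0.779 (0.285 to 2.97) for Tnfsf10 on 4, and these intervals include 1. Thus 2 of 6 genes with at least 20 UMIs were at least 1.5-fold higher and 2 lower in checkpoint cells, where 15.1% of 10362 genes were higher and 32.4% lower. In other cells 1 of 7 was higher (Prf1) and 4 lower (Gzmk, Fasl, Gzma and Tnfsf10), where 14.7% of 8351 genes were higher and 34.9% lower. Monocyte and macrophage markers summed to 732 CPM in the DOPAC and 3701 CPM in the Control library in other cells, and their part was not tested.

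**Figure D4:**
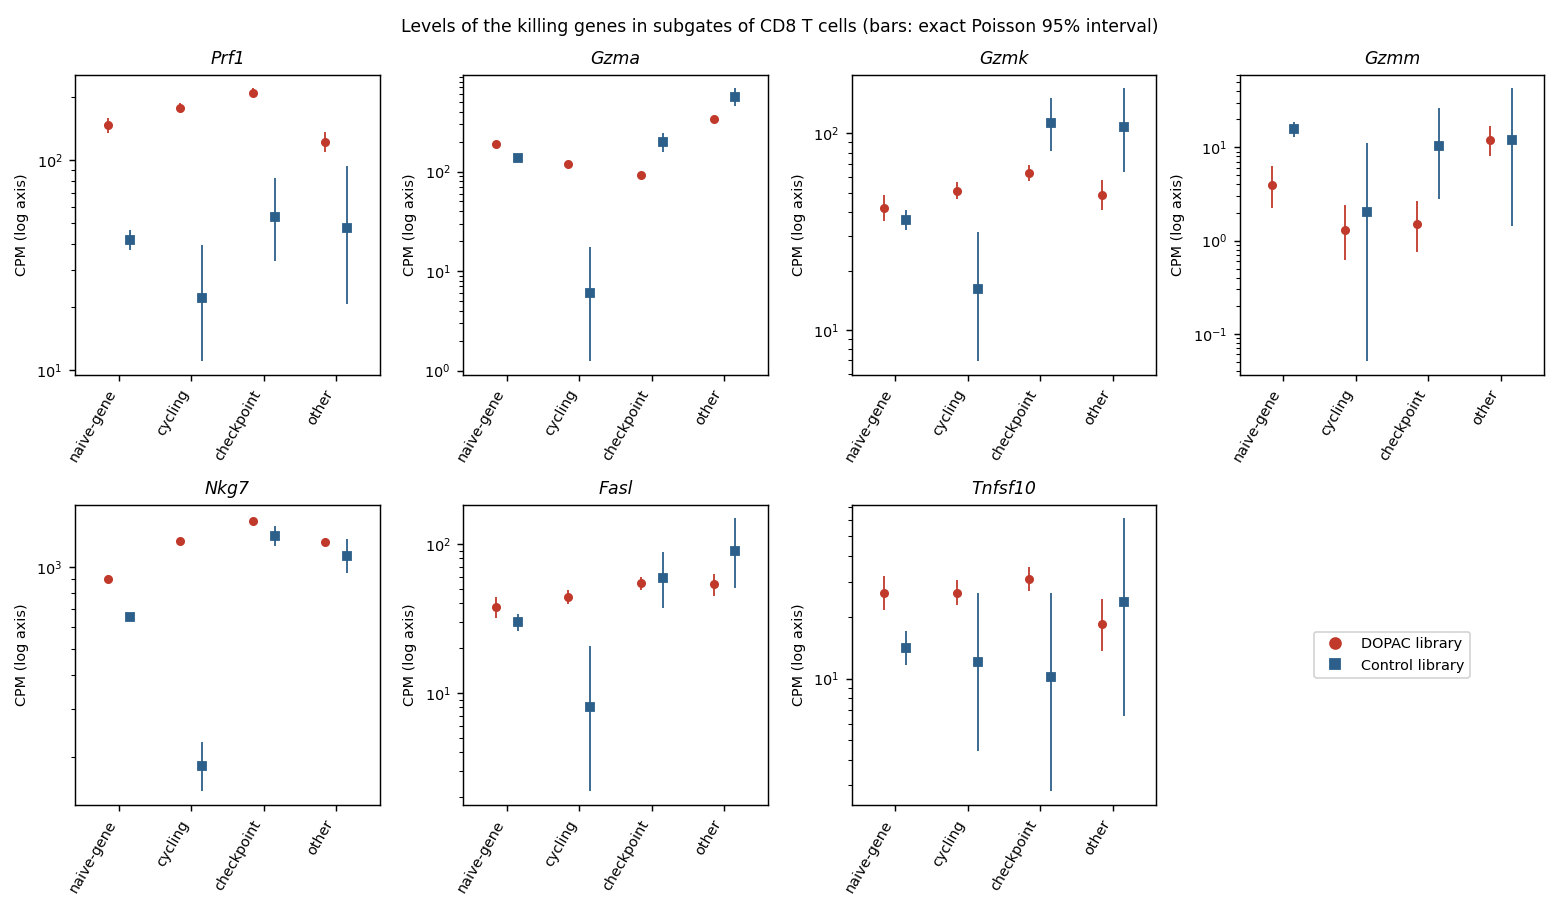
Level of each gene (CPM, log axis) in 4 successive gates of CD8 T cells, with the DOPAC library as red circles, the Control library as blue squares and bars for exact Poisson 95% intervals. The DOPAC circle lies above the Control square for Prf1 in all 4 gates and below it for Gzma and Gzmk in checkpoint and other cells.

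CD8 T and NK cells differed in how many of the 7 killing genes were found in a cell. Such counts depend on the share of cells with each gene alone, such as Gzma in 68.4% of DOPAC NK and 9.33% of DOPAC CD8 T cells. The pairs given below were not compared between the classes. After thinning to 1000 UMIs, at least 2 of the 7 genes were found in 23.5% (22.2 to 24.9) of DOPAC and 13.3% (11.0 to 15.8) of Control CD8 T cells, and in 52.6% (46.0 to 59.1) of DOPAC and 66.8% (62.4 to 71.0) of Control NK cells. At least 3 were found in 17.1% of DOPAC and 30.4% of Control NK cells and in 2.80% and 2.09% of CD8 T cells. In NK cells Prf1 and Gzma occurred together. A Prf1 UMI was found in 34.4% of DOPAC NK cells with Gzma and in 9.46% of those without, and in the Control library in 36.3% and 9.82%. Of Control CD8 T cells with a Gzmk UMI, 22.2% (11.2 to 37.1) also had Gzma, against 7.42% (5.67 to 9.51) of those without, and in the DOPAC library the shares were 13.7% (9.09 to 19.6) and 9.10% (8.17 to 10.1), whose intervals overlap. Whether the libraries differ in this pair was not tested. In DOPAC CD8 T cells Fasl was found in 11.8% of cells with Tnfsf10 and 5.14% of those without. Cells of 1 library share their source and their depth was equalised only in total, so these shares are a description.

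Across 14 profiles of class and library with at least 100 cells, B and Csf1r cells included, the levels of some of the 7 genes followed each other. The profiles share 2 libraries and some of their RNA, and the correlations of log2(CPM + 1) are given as a description. Nkg7 and Fasl had a Pearson r of 0.98 and Prf1 and Gzma one of 0.94, whereas Gzmm and Tnfsf10 had one of 0.33. Among 11384 other genes with at least 200 UMIs, the 3 most like Prf1 were Klre1, Klrd1 and Eomes (r of 0.97 each). Those most like Fasl were Tbx21, Ctla2a and Serpinb6b (0.98 to 0.99), and those most like Nkg7 were Ms4a4b, Ifng and Cst7 (0.98 each). Gzma was followed by Tshz3, Gm11714 and Adamts14 (0.98 to 0.99), Gzmk by Selenoi, Gm29243 and Armc7 (0.91 to 0.93), Tnfsf10 by Fancf (0.95) and Mrps6 (0.94) and Gzmm by Kifc5b, Cox10 and Sec11a (0.81 to 0.82).

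Of 21 genes of the granule machinery, 3 were at least 1.5-fold higher and 5 lower in DOPAC CD8 T cells, shares near those over all genes (13.7% and 27.3%), with a median log2 ratio of 0.07 beside -0.15. The 3 higher genes were serpins that inhibit proteases in the killer cell. Serpinb9b was at 13.4 CPM in the DOPAC and 2.99 CPM in the Control library (log2 ratio 2.11), Serpinb9, which inhibits granzyme B, at 298 and 114 CPM (1.39), and Serpinb6b at 301 and 136 CPM (1.15). The lowest were Cd63 (-3.24), a granule membrane tetraspanin, and the lysosomal cathepsins Ctsl (-1.77) and Ctsh (-1.66), which macrophages also express. In NK cells, 0 of the 21 were higher and 8 lower, beside 13.6% and 21.0% over all genes, with a median of -0.47 beside -0.06. The lowest were again Ctsl (-2.34), Cd63 (-1.85) and Ctsh (-1.67).

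Of the death receptor pathway, 1 of the 17 genes with at least 20 UMIs was higher and 9 were lower in DOPAC CD8 T cells, beside 13.7% and 27.3% over all genes, with a median log2 ratio of -0.73 beside -0.15. The lowest were Tnfrsf10b, the mouse receptor of TRAIL (-1.90), Tnfrsf22, one of its decoy receptors (-1.81), and Fas, the receptor of Fas ligand, at 10.3 CPM in the DOPAC and 32.0 CPM in the Control library (-1.63). In NK cells 4 of 13 were higher and 3 lower, beside 13.6% and 21.0% over all genes, with a median of 0.19 beside -0.06. Apaf1 (0.80) and Tnfrsf23 (0.70) were among the higher genes, and Tnfrsf1a (-0.98), Cflar (-0.72) and Tnf (-0.63) the lowest.

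Of 18 regulators of effector cells with at least 20 UMIs, 4 were higher and 7 lower in DOPAC CD8 T cells, beside 13.7% and 27.3% over all genes, with a median log2 ratio of 0.04 beside -0.15. Id2, a regulator of effector T cells, was at 799.6 CPM in the DOPAC and 270.5 CPM in the Control library (1.56), followed by Runx3 (1.32) and Il2rb, a receptor chain for IL-2 and IL-15 (1.24). Tcf7 (-3.54), Lef1 (-3.49) and Id3 (-2.46), genes of naive and memory cells, were the lowest. In NK cells 2 were higher and 4 lower, shares near the 13.6% and 21.0% over all genes, with a median of -0.33 beside -0.06. Hopx (0.61) and Id2 (0.60) were higher, and Bcl6 (53.0 CPM in the DOPAC and 108 CPM in the Control library), Lef1 (-0.81) and Tcf7 (-0.73) were the lowest. Of the granzymes on chromosome 14, all 5 with at least 20 UMIs were higher in DOPAC CD8 T cells: Gzme and Gzmd had 173 and 89 UMIs there and 0 in Control CD8 T cells, and Gzmf was at 34.1 CPM in the DOPAC and 0.921 CPM (8 UMIs) in the Control library. In NK cells Gzmd had 47 UMIs in the DOPAC and 0 in the Control library, Gzmc was at 566 and 200 CPM and Gzmb at 763 and 405 CPM, whereas Gzmf had 0 UMIs in the DOPAC and 28 in the Control library.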

How the data were processed

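Per the file headers, the values deposited by the authors are raw counts of UMIs, one matrix of genes and barcodes per library, from Cell Ranger 7.0.1, and the genome was GRCm38 per the submitters' processing notes. The DOPAC library held 10777 barcodes with 47769958 UMIs and the Control library 9629 barcodes with 100938364 UMIs. Cells were kept with at least 500 UMIs, 200 genes and at most 10% mitochondrial UMIs. Doublets were scored with Scrublet in scanpy 1.11.5. Its threshold removed 370 Control cells but marked 0.0% of the DOPAC cells, so the 870 DOPAC cells with the highest scores were removed at a rate of 0.8% per 1000 barcodes.

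Counts were summed per class and library and given as CPM with exact Poisson intervals. Log2 ratios of DOPAC over Control had 1 count added to each sum, and fold intervals came from the exact binomial interval of the sums. Shares had Clopper-Pearson intervals after thinning to 1000 UMIs, with 3 counts as the limit for 0. A gene was called at 1.5-fold with at least 20 UMIs. The all-gene ratio was tested on simulated data with changes larger than 1.5-fold, in genes well above 20 UMIs and with counting error only. That test is no check of calls near 1.5-fold, of genes with few UMIs or of differences between mice.

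Named were the 7 genes, the 3 genes most like each, and of each list the 3 highest and 3 lowest past the fold in CD8 T and NK cells. The 7 genes and all lists were chosen with earlier results of these data known. Some genes that these rules name, or that a gate uses, are not reported here.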

Additional observations from a re-analysis of the deposited data

Results flagged for a closer look

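Fasl differed in direction between cell classes. Its log2 ratio of DOPAC over Control was -0.69 in NK cells and 0.61 in CD8 T cells, each at least 1.5-fold as counted. It passed 1.5-fold in 7 of 10 alternatives in NK cells and in 5 of 9 in CD8 T cells, with the same direction in all of them. Within CD8 T cells its fold was 0.922 in checkpoint and 0.597 in other cells, with intervals that include 1. Within NK cells its log2 ratio was -0.59 with Itga2 and -0.41 without it, with intervals that include no change. With 1 library per group the difference between the classes was not tested.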

How the results depend on the processing

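Of 14 log2 ratios (7 genes in CD8 T and in NK cells), 8 kept their direction in every alternative run, among them Prf1 in CD8 T cells (1.96 to 2.32). For Prf1, the 2.32 rests on 9 Control UMIs. The run without markers of another lineage rests on 46 Control UMIs in 176 cells, and that without naive-gene cells on 40 in 90 cells. Of 133 values, 34 moved beyond the counting interval, and where they moved, the cause was not tested. In CD8 T cells, thinning to 1000 UMIs before gating gave 2.32 for Prf1, -0.30 for Gzma, -0.39 for Gzmk, -0.51 for Gzmm, 0.47 for Nkg7 and 0.34 for Fasl. The Gzmm value of this run rests on 16 DOPAC and 3 Control UMIs. Leaving out cells with markers of another lineage gave -0.038 for Gzmk, -3.07 for Gzmm, 0.99 for Nkg7 and 1.26 for Tnfsf10. Leaving out naive-gene cells gave -0.26 for Gzma, -0.27 for Gzmk, -1.33 for Gzmm, 0.85 for Nkg7 and 0.29 for Fasl. There the Gzmm value rests on 52 DOPAC and 7 Control UMIs. At least 2 Cd3 UMIs gave -0.17 for Gzma and 0.76 for Nkg7, setting the median of all genes to 0 gave 0.23 and 1.07, and keeping doublets gave 0.37 for Gzma.

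In NK cells, thinning before gating gave -0.31 for Gzma, -1.21 for Fasl and -1.88 for Tnfsf10, which rests on 0 DOPAC and 4 Control UMIs, so that the added count sets it. Leaving out other lineages gave -0.42 for Prf1, -0.41 for Gzma and -0.74 for Nkg7. Leaving out NK cells without Itga2 gave -0.43 for Gzma, -0.63 for Nkg7 and -1.16 for Tnfsf10, on 0 DOPAC and 17 Control UMIs. Gzma was at -0.068 with doublets, -0.075 with 1 Cd3 UMI allowed, -0.085 with the median of all genes at 0, and -0.037 without mitochondrial, ribosomal and haemoglobin genes in the total, where Nkg7 was at -0.39. A wider NK gate (at least 2 UMIs over Ncr1, Klrb1c and Klre1), chosen after the data were seen, moved none beyond the interval. Fasl in NK cells fell short of 1.5-fold there (-0.52), with doublets (-0.58) and without the 3 gene classes (-0.58).

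Genes past 1.5-fold numbered 5463 in CD8 T and 3338 in NK cells, against 2940 and 1384 at 2-fold, and 9934 and 7802 with no minimum of UMIs. The median shift of all genes in CD8 T cells was -0.15. The DOPAC library is shallower, so genes with few UMIs, Gzmm and Tnfsf10 above all, are limited by depth. No paired analysis was possible because each group has 1 library, and no replicate could be left out.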
